A study of Saccharomyces cerevisiae with 21 samples.

Results

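Gene expression was compared across the genome between the trough that followed the first G1/S pulse and the pulse itself in budding yeast (Saccharomyces cerevisiae) whose 6 B-type cyclin genes are disrupted. The 60, 70 and 80 min libraries after release from G1 arrest were set against the 20, 30 and 40 min libraries, 6 of the 21 libraries of one time course with 1 library every 10 min. Both groups carry the same genotype, in the strain BF264-15D: MATa cells with bar1::hphMX4, the marker mutation arg4, the S-phase cyclin disruptions clb5::ARG4 and clb6::ADE1, and the mitotic ones clb3::TRP1, clb4::HIS2, clb1::URA3 and clb2::LEU2, plus a copy of CLB1 on the galactose-inducible GAL1 promoter (PGAL1-CLB1::LEU2). Cells grew at 30 °C in YEPGalactose, were held in G1 for 160 min with alpha-factor at 30 ng/ml, the pheromone of the opposite mating type, and were released into YEPDextrose, so the 2 groups differ in time since release and in nothing else that the labels give. Of 7126 genes and other loci, 6100 had a mean of at least 1 FPKM (fragments scaled to transcript length and library size) over the 6 libraries and were compared.

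In G1, the transcription factors SBF (Swi4 with Swi6) and MBF (Mbp1 with Swi6) switch on genes for budding and for DNA replication. In wild-type yeast the pulse they produce ends while S phase proceeds: Nrm1 joins MBF as a repressor, and B-type cyclins with the kinase Cdc28 turn off SBF and later drive the G2 and mitotic genes. Without B-type cyclins cells bud but do not replicate their DNA or enter mitosis, and the series follows which parts of this programme still run.

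Across all loci, 346 were lower (5.67% of those tested) and 428 were higher (7.02%) at 60 to 80 min than at 20 to 40 min, by limma on log2(FPKM + 1) with Benjamini-Hochberg adjusted p under 0.05. Of these, 89 were lower (1.46%) and 130 were higher (2.13%) by at least 1 on the log2 scale. Of the gene lists described below, the 5 with the largest shares lower were MBF genes, cohesin, pheromone genes, replication polymerases and galactose genes. The 5 with the largest shares higher were chaperones, fatty acid and lysine synthesis, the TCA cycle and the proteasome. Lists share members, so their counts repeat some calls. POL30 and POL1 are in the MBF and polymerase lists, and RNR1 and CDC21 in the MBF and nucleotide supply lists. The median log2 difference over all loci was 0.03, and 47.3% of loci lay below 0.

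These calls sit close to the threshold. The smallest adjusted p was 0.0221, and leaving out 1 library at a time gave 0 to 447 lower and 0 to 425 higher loci: 4 lower and 18 higher without 60 min, 0 and 1 without 70 min, 0 and 0 without 80 min, 0 and 0 without 20 min, 0 and 1 without 30 min, and 447 and 425 without 40 min. Each of these fits had 1407 to 2200 loci at an unadjusted p under 0.05. Leaving out 1 library gave 0 to 35 lower members of the MBF list described below and 0 to 16 higher members of the chaperone list. With every library rescaled to the same sum of FPKM, 49 loci were lower and 75 higher, 4 MBF genes and 4 chaperone genes among them. Counts of list members below come from all 6 libraries as deposited, to be read against the 5.67% lower and 7.02% higher among all loci. Each of the 774 called loci kept its direction in every one of these fits, which reuse the libraries that gave the calls, so this is no separate support. Neighbouring times of 1 course are not independent replicates, so the p-values measure only the spread between these libraries, and trends within a window add to that spread. The exact permutation test for a single gene cannot go below p = 0.1 with 3 libraries against 3. A count that needs no model is given beside the calls: 1281 loci (21%) had all 3 later libraries below all 3 earlier ones, and 1552 (25.4%) had all 3 above.

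**Figure D1:**
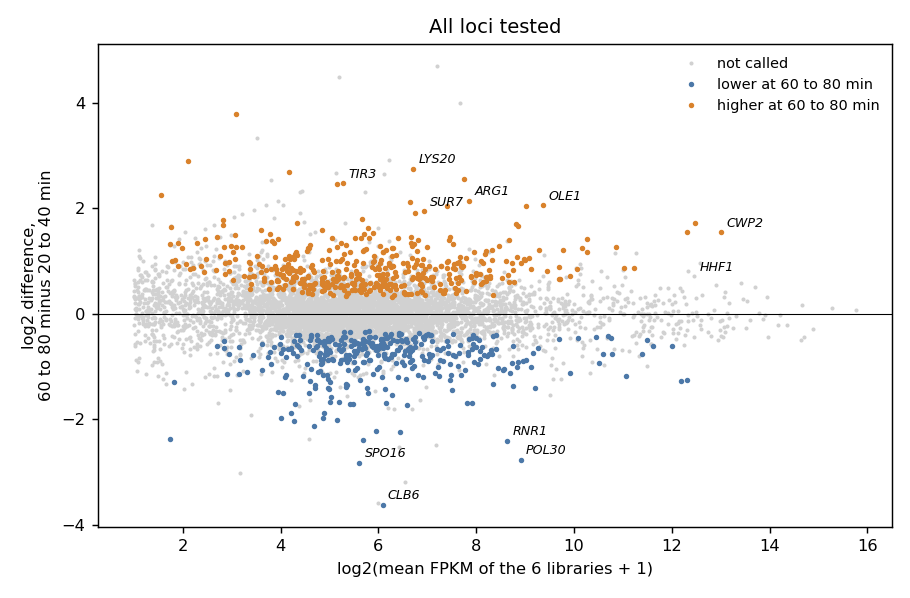
Each point is 1 of the 6100 loci: the x axis is log2 of its mean FPKM over the 6 libraries plus 1, the y axis its log2 difference, 60 to 80 min minus 20 to 40 min. Blue points are the 346 loci lower and orange points the 428 loci higher at 60 to 80 min, with 11 genes labelled, of which HHF1 was not called.

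The libraries had sums of 1567223 to 1722096 FPKM at 60 to 80 min and 1560657 to 1727296 FPKM at 20 to 40 min. A sum of FPKM does not give the size of a library, and read depth is unknown. The 80 min library stood apart in its most abundant loci: the 10 largest took 12.4% of its FPKM, against 16.7% to 19.2% in each of the other 5. Markers of MATa cells summed to 7213 to 20843 FPKM at 60 to 80 min and 12429 to 22891 FPKM at 20 to 40 min over 7 genes, and those of MAT alpha cells to 49 to 59 FPKM at 60 to 80 min and 54 to 65 FPKM at 20 to 40 min over 3 tested genes, mostly SAG1.

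CLB4, a mitotic cyclin gene, was listed at 0 in all 6 libraries and at every other time of the course. CLB6 (YGR109C, chromosome VII, 705359 to 706501), which encodes a cyclin of S phase and is activated by MBF, had 11.7, 9.84 and 4.79 FPKM at 60, 70 and 80 min, against 156, 160.3 and 58.1 FPKM at 20, 30 and 40 min. It was the lowest of all called genes that the text names (log2 difference -3.63 ± 0.46 SE, adjusted p = 0.0269, limma). CLB5, its partner in S phase, had 44.0, 44.5 and 38.2 FPKM in the later libraries and 80.4, 65.3 and 52.9 FPKM in the earlier ones (log2 difference -0.62, adjusted p = 0.0527, not called). The groups do not overlap for either gene, and the earlier libraries are the higher ones. CLB1, the gene also carried on the GAL1 promoter, was lower, with 146, 139 and 116 FPKM at 60 to 80 min against 238, 202 and 178 FPKM at 20 to 40 min (log2 difference -0.62, adjusted p = 0.0439). CLB2, the main mitotic cyclin gene, averaged 87.1 ± 8.19 FPKM at 60 to 80 min and 57.5 ± 11.6 FPKM at 20 to 40 min (SD over 3 libraries each; log2 difference 0.61, adjusted p = 0.057 by limma), and CLB3 had a difference of 0.03. Reads are summed over each locus whatever part of it is left, so levels above 0 neither bear out nor contradict the disruptions. None of these levels says anything of cyclin protein.

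DNA replication, cohesion and repair genes under MBF were the group with the most calls among lower loci. Of 39 listed genes, 29 were lower and 0 higher, and 37 had all later libraries below all earlier ones (all loci: 21%). Their median log2 difference was -1.40, against 0.03 over all loci. The list was written with earlier results of these data known, so its count is a description. POL30 (YBR088C, chromosome II, 424990 to 425766), the sliding clamp that holds DNA polymerases on the template, had 118, 101 and 101 FPKM at 60, 70 and 80 min, against 1379.5, 843 and 337 FPKM at 20, 30 and 40 min (log2 difference -2.77 ± 0.47 SE, adjusted p = 0.0334). CDC21 (YOR074C, chromosome XV, 466675 to 467589), the thymidylate synthase gene, had 20.6, 20.1 and 18 FPKM at 60, 70 and 80 min, against 139, 118 and 51.3 FPKM at 20, 30 and 40 min (-2.22 ± 0.35, adjusted p = 0.0332). Both genes were highest at 20 min, and their 3 later values lay close together.

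Promoters of these genes carry the letters that MBF recognises. The 300 bases before the annotated start of the gene are shown for the 3 members with the largest differences among those holding a match, from the R64 genome, 5′ to 3′ on the coding strand, with each MCB (MluI cell-cycle box, ACGCGT) in capitals. They are POL30 (chromosome II, minus strand, chrII:425767-426066), CDC21 (chromosome XV, minus strand, chrXV:467590-467889) and POL1 (chromosome XIV, plus strand, chrXIV:429787-430086).
POL30: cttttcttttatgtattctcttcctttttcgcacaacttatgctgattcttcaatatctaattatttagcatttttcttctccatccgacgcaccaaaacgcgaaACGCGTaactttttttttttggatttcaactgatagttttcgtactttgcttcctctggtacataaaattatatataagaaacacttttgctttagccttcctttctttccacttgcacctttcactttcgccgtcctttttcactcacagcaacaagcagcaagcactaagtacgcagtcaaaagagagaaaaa
CDC21: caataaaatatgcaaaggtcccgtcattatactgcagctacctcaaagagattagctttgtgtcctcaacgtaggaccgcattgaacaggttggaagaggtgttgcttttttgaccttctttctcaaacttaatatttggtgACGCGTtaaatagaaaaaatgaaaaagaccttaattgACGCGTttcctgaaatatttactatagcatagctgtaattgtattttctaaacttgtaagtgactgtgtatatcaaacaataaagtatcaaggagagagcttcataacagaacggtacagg
POL1: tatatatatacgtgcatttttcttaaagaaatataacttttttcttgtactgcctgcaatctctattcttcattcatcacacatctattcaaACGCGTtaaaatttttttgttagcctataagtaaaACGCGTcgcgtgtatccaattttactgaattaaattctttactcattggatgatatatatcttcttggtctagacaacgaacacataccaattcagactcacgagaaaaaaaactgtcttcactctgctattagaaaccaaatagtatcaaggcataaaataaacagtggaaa
The match in POL30 starts 195 bases before the gene, those in CDC21 158 and 121 bases before it, and those in POL1 208 and 173 bases before it.

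The MCB was searched on both strands before all 5618 protein-coding loci tested. It was present before 18.6% of lower loci, 0.726% of higher loci and 3.63% of all tested loci, and before 74.4% of the 39 MBF genes. Of 5414 loci with no match, 4.93% were lower. Of 181 loci with 1 match 24.9% were lower, and of 23 loci with 2 or more matches 69.6% (16 loci) were lower and 0 were higher. The SCB (Swi4 box, CGCGAAA) stood before 13.7% of lower loci, 2.42% of higher loci and 4.06% of all tested loci. An MCB and an SCB were found together before 19 loci, and they shared bases in 2 of these. A match is a run of letters and not a shown binding site, and the RNR1 and CLB6 windows held no MCB.

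**Figure D2:**
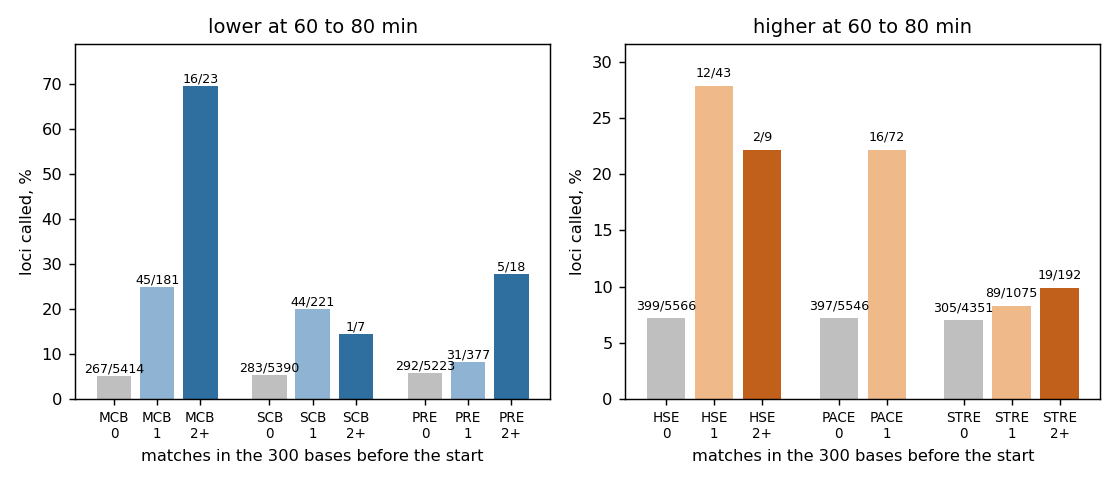
Bars show the percentage of protein-coding loci called at 60 to 80 min, by the number of matches (0, 1, 2 or more) in the 300 bases before the start, with called over all loci printed above each bar: lower loci on the left, higher loci on the right. The share of lower loci is 4.93% with no MCB, 24.9% with 1 and 69.6% with 2 or more. The share of higher loci is 7.17% with no HSE and 27.9% with 1 and 22.2% (2 of 9) with 2 or more, and 7.16% with no PACE and 22.2% with 1.

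Within the replication machinery the calls fell on some subunits and not on others, and differences between genes were not tested. Among 25 genes of the polymerases, primase, clamp and clamp loader, 13 were lower and 0 higher (median -0.70). POL1 (YNL102W, chromosome XIV, 430087 to 434493), the catalytic subunit of polymerase alpha, had 12.9, 11.7 and 10.8 FPKM at 60 to 80 min and 93.8, 52.1 and 26.0 FPKM at 20 to 40 min (-2.01 ± 0.42, adjusted p = 0.0377). POL12 and PRI2, which encode its regulatory subunit and the large primase subunit, were lower by similar amounts (-1.67 and -1.71), while the small primase subunit PRI1 had a difference of -0.24 and was not called. The 3 genes of RPA, the protein that coats single-stranded DNA, were lower together (RFA1 -1.41, RFA2 -1.18, RFA3 -1.12). The 5 genes of the clamp loader, RFC1 to RFC5, lay between -0.49 and -0.10 with 0 called (1 at an unadjusted p under 0.05).

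Genes of nucleotide supply also differed in their calls. RNR1 (YER070W, chromosome V, 298950 to 301616), the large subunit of ribonucleotide reductase, had 118, 97.4 and 123 FPKM at 60, 70 and 80 min, against 1085, 617 and 322 FPKM at 20, 30 and 40 min (-2.41 ± 0.41, adjusted p = 0.0332). The small subunit genes RNR2 and RNR4 averaged 286 ± 39.5 and 399 ± 27.6 FPKM at 60 to 80 min and 333 ± 11.4 and 440.0 ± 10.4 FPKM at 20 to 40 min (SD over 3 libraries each), with differences of -0.23 and -0.14 and no call. CDC8, the thymidylate kinase gene, was lower by less (log2 difference -0.87). In all, 3 of 10 genes of this list were lower and 0 higher.

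The 4 core subunit genes of cohesin, the ring that holds sister chromatids together, were all lower. MCD1 (YDL003W, chromosome IV, 444683 to 446383), the subunit cleaved at anaphase, had 41.9, 38.4 and 42.4 FPKM at 60 to 80 min, against 217, 146 and 81.9 FPKM at 20 to 40 min (-1.73 ± 0.33, adjusted p = 0.0352). SMC3, SMC1 and IRR1, the other core subunits, were lower (-1.89, -1.17 and -1.57), as was the ring-associated PDS5 (-1.71). The loader genes SCC2 and SCC4 had differences of -0.56 and -0.03, and the separase gene ESP1 of 0.02, and none of these 3 was called. In all 6 of 11 genes were lower and 0 higher, and PDS1, the separase inhibitor, was lower by less than the core subunits (-0.56).

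Of 14 origin licensing genes, 1 passed the test. MCM2 to MCM7, the helicase subunits, had log2 differences between -1.14 (MCM7) and -0.25 (MCM6), with 0 of 6 called (2 at an unadjusted p under 0.05). MCM2 had 9.75, 9.88 and 10.5 FPKM at 60, 70 and 80 min and 34.0, 13 and 10.3 FPKM at 20, 30 and 40 min. Of the 6 libraries its 20 min library alone was high, and its 40 min library already overlapped the later group. At 10 min, before both windows, MCM2 had 42.8 FPKM, and MCM3 to MCM7 were also higher at 10 min than at 20 min. TAH11, which brings the helicase to origins, was the gene called, and it was higher (0.75, adjusted p = 0.047).

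No histone gene was called. Of 9 genes for core histones and H1, 0 were lower and 0 higher by limma, also at an unadjusted p under 0.05, with a median difference of 0.25. HHF1 (YBR009C, chromosome II, 255373 to 255684), one of the pair of H4 genes, had 7015, 7045 and 4773 FPKM at 60, 70 and 80 min, against 1163, 6564 and 7079 FPKM at 20, 30 and 40 min. Its 20 min library was low and the other 5 overlap. HTA2, an H2A gene, had 3549.6, 3338 and 2952 FPKM in the later libraries and 1406, 3617 and 4112 FPKM in the earlier ones. Of the 6 libraries, both of these genes were lowest at 20 min, where the mean of the MBF genes was highest from 20 min on. At 0 and 10 min they were lower still, with 279 and 226 FPKM for HHF1 and 140 and 140 FPKM for HTA2. Of the 9 genes, 7 had a difference above 0 and 2 below it, HTA1 (-0.57) and HTB1 (-0.19). HTA1 was lowest at 80 min, with 2225 FPKM against 2344 FPKM at 20 min. The histone list's median at 50 min stood 0.54 above its 20 to 40 min mean, against -1.21 for the MBF list, each with 1 library at 50 min. The paired histone genes are near-identical in sequence, so the split of reads between the members of a pair is uncertain. Without the 20 min library the median of the histone list was -0.14.

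**Figure D3:**
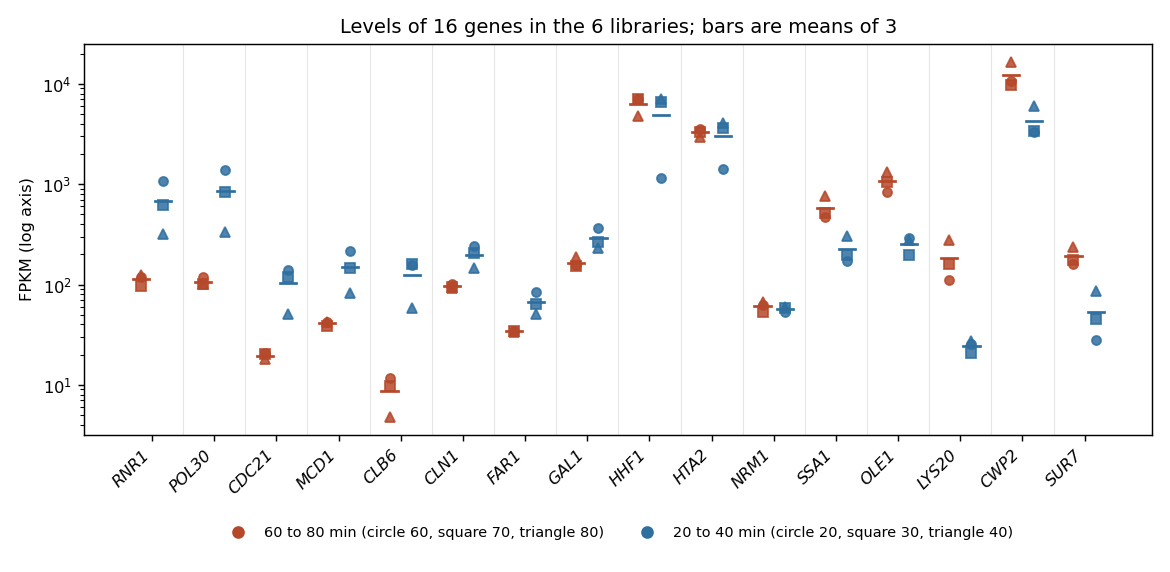
FPKM on a log axis of 16 genes in the 6 libraries, with 60 to 80 min in red on the left of each pair and 20 to 40 min in blue on the right; bars are means of 3 libraries. The windows do not overlap for RNR1, POL30, CDC21, MCD1, CLB6, CLN1, FAR1 and GAL1 (lower) nor for SSA1, OLE1, LYS20, CWP2 and SUR7 (higher), and they overlap for HHF1, HTA2 and NRM1.

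SBF genes for budding, cell wall and G1 cyclins were lower by less than MBF genes in median (-0.58, with 7 of 19 lower and 0 higher; the difference between the lists was not tested). CLN1 (YMR199W, chromosome XIII, 662644 to 664284), a G1 cyclin gene, had 102, 94.4 and 91.6 FPKM at 60 to 80 min, against 243, 207 and 145 FPKM at 20 to 40 min (-1.01 ± 0.19, adjusted p = 0.0352). CLN2, its close relative, was not called (-0.77, adjusted p = 0.0559). MNN1, a Golgi mannosyltransferase gene, GIN4, a bud-neck kinase gene, and PCL2, a cyclin gene for the kinase Pho85, were lower (-1.17, -0.94 and -0.89). The wall protein genes SVS1 and SRL1 had differences of -0.17 and 0.35 without a call, and PCL1 was at 117, 118 and 185 FPKM at 60, 70 and 80 min against 229, 187 and 150.2 FPKM at 20, 30 and 40 min. Its 80 min library lay within the range of the earlier group.

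Among 28 regulators of the cell cycle, 4 were lower (14.3%, against 5.67% of all loci) and 1 higher (3.57%, against 7.02%). FAR1, which stops G1 cyclins during pheromone arrest, CLN1, SWE1, the kinase that restrains Cdc28, and PDS1 were lower (-0.91, -1.01, -0.59 and -0.56). WHI5, the repressor of SBF, was higher: it had 3.94, 4.43 and 5.08 FPKM at 60, 70 and 80 min and 1.2, 2.14 and 2.30 FPKM at 20, 30 and 40 min (0.95, adjusted p = 0.0462), a low level throughout. SWI4, the DNA-binding subunit of SBF, had 10.7, 9.47 and 8.83 FPKM in the later libraries and 64, 29.8 and 17 FPKM in the earlier ones without passing the test (-1.64, adjusted p = 0.0532), and MBP1 had a difference of -0.04. NRM1, the MBF co-repressor gene that MBF itself activates, was not called, with 61.9, 53.3 and 67.0 FPKM at 60, 70 and 80 min and 53.4, 58.1 and 60.3 FPKM at 20, 30 and 40 min (0.08, adjusted p = 0.619). It was the only 1 of the 39 listed MBF genes with a difference above 0.

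G2 and mitotic genes of the Clb2 cluster, which need B-type cyclins for full expression in wild-type cells, had a median of 0.54, with 5 of 19 higher and 1 lower. SUR7 (YML052W, chromosome XIII, 170402 to 171310), a protein of plasma membrane domains next to eisosomes, had 161, 175 and 236 FPKM at 60, 70 and 80 min, against 28.3, 44.9 and 85.7 FPKM at 20, 30 and 40 min (1.95 ± 0.38, adjusted p = 0.0368). HST3, a histone deacetylase gene, and CHS2, the septum chitin synthase gene, were higher from low levels, with 8.26, 9.15 and 13.8 and 20.6, 24.1 and 25.7 FPKM at 60 to 80 min and 4.61, 4.10 and 4.51 and 10.8, 9.06 and 13.3 FPKM at 20 to 40 min. SWI5, a mitotic exit factor gene, and CDC5, the polo kinase gene, had differences of 0.87 and 0.54: both had all later libraries above all earlier ones, neither was called, and the level of SWI5 stayed at or under 15.1 FPKM. CDC20, the activator of the anaphase-promoting complex, had a difference of -0.10. The kinase gene KIN3 was lower (-1.51, with 7.76, 8.10 and 6.37 FPKM at 60 to 80 min against 29.6, 26.0 and 15.5 FPKM at 20 to 40 min).

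Genes expressed at the end of mitosis and in early G1 in wild-type cells had 4 of 12 lower and 0 higher. AMN1 and DSE2, genes of daughter cells, were lower (-0.88 and -0.87). SIC1, the inhibitor of B-type cyclin kinase, was at 39.7, 45.4 and 64.2 FPKM at 60, 70 and 80 min and 34.0, 33.8 and 28.6 FPKM at 20, 30 and 40 min, with all later libraries above all earlier ones and no call (adjusted p = 0.0737). Spindle and kinetochore genes had 4 of 36 lower (11.1%, against 5.67% of all loci) and 0 higher. Among the lower were DUO1 and MTW1 (-0.92 and -0.80), subunits at the kinetochore.

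**Figure D4:**
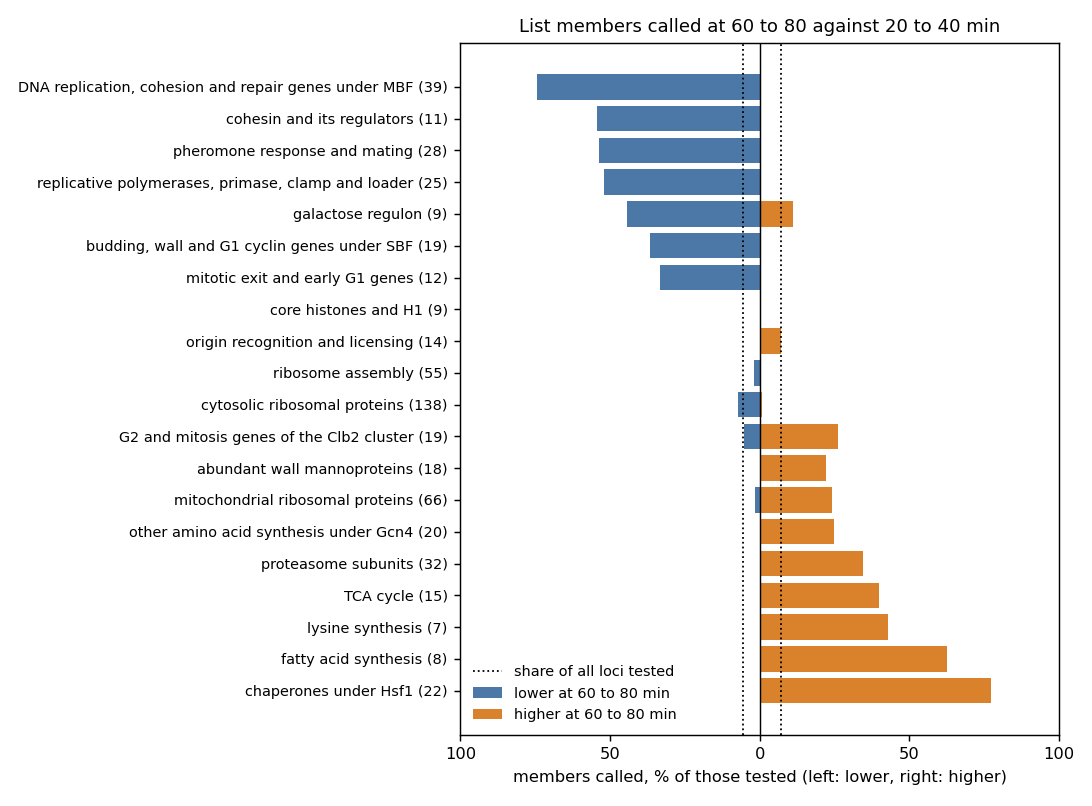
Bars give the percentage of tested members called lower (left, blue) and higher (right, orange) at 60 to 80 min for 20 gene lists, with the number tested in parentheses; dotted lines mark the shares over all loci, 5.67% lower and 7.02% higher. The MBF list reaches 74.4% lower and the Hsf1 chaperones 77.3% higher, and the histone list has none of either.

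Among the 12 lowest genes of the whole comparison, several belong to none of the replication lists. SPO16 (YHR153C, chromosome VIII, 402086 to 402682), known for its part in meiotic crossing over, had 12.8, 9.23 and 6.98 FPKM at 60, 70 and 80 min, against 146, 78.5 and 33.3 FPKM at 20, 30 and 40 min (-2.83 ± 0.51, adjusted p = 0.0334). It lies head to head with RTT107, a DNA repair scaffold gene that was also lower (-1.33). CIN2, a tubulin folding factor gene, MSA2, a regulator of G1 transcription, ESC8, a silencing gene, and SPT21, needed for full histone gene transcription, were lower (-2.39, -2.12, -2.03 and -1.97). YNL143C, whose function is not known, was lower as well (-1.98). Of these 6 genes, 5 had at least 1 MCB in their window and YNL143C had 0.

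Some called genes lie head to head, with their starts facing away from each other. Of 1354 head-to-head gene pairs with both members tested, 117 had at least 1 lower member and 11 had both lower, among them RFA1 with the tRNA splicing gene SEN34 (346 bp apart) and SPO16 with RTT107 (283 bp apart). RAD27 with ABF1 (694 bp) and RFA3 with CPS1 (1207 bp) were also among them. Each gene has its own window of 300 bases, so the windows of RFA1 with SEN34 and of SPO16 with RTT107 overlap. A match in shared bases counts for both neighbours, also in the MCB shares given above. For higher genes the counts were 208 and 26, and 5 pairs had 1 member in each direction. Whether neighbours were called together more often than other genes was not tested.

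Of 28 pheromone and mating genes, 15 were lower (53.6%, against 5.67% of all loci) and 0 higher in the later window. Their median difference was -0.75, and 21 had all later libraries below all earlier ones (all loci: 21%). FIG1 (YBR040W, chromosome II, 316968 to 317864), a membrane protein made during mating, had 223, 193 and 134 FPKM at 60, 70 and 80 min, against 574, 464 and 355 FPKM at 20, 30 and 40 min (-1.34 ± 0.24, adjusted p = 0.0334). Its level at 0 min, in arrested cells, was 2627 FPKM, so the difference is a late portion of a longer decline. STE2, the alpha-factor receptor gene, PRM6, a potassium transport gene, and FUS2, a cell fusion gene, were lower (-1.08, -1.20 and -1.17). The pheromone signalling genes STE4, STE18 and STE12 lay between -0.16 and -0.10 with 0 called, also at an unadjusted p under 0.05. The pheromone response element (PRE, TGAAACA, both strands) stood before 60.7% of the list, 11% of lower loci, 5.08% of higher loci and 7.03% of all tested loci. Its match in the PRM6 promoter (chromosome XIII, minus strand, chrXIII:181076-181375) is in capitals, 156 bases before the gene, in the member with the largest difference that holds a match.
PRM6: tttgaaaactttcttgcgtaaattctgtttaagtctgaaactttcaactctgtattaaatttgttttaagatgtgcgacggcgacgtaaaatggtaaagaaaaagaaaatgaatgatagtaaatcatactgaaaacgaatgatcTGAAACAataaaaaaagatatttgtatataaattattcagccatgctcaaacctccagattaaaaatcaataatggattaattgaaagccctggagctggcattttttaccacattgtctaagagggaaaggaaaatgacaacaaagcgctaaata

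Of 9 genes of galactose use 4 were lower (44.4%) and 1 was higher. GAL1 (YBR020W, chromosome II, 279021 to 280607), which encodes galactokinase and whose promoter also drives the CLB1 copy, had 158, 153 and 187 FPKM at 60 to 80 min, against 368, 265 and 234 FPKM at 20 to 40 min (-0.78 ± 0.18, adjusted p = 0.0448). GAL10, GAL7 and GAL2, an epimerase, a transferase and a galactose transporter gene, were lower (-0.95, -0.91 and -0.63). The gene that was higher was PGM2, a phosphoglucomutase gene that stress factors also control (0.47). GAL1 and GAL10 overlap an annotated noncoding RNA gene. The release from pheromone, the change of sugar and the time in the cycle run together in this course and cannot be told apart.

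Chaperone genes under the heat shock factor Hsf1 were the group with the most calls among higher loci. Of 22 genes 17 were higher and 0 lower, all 22 had every later library above every earlier one (all loci: 25.4%), and the median difference was 1.01. SSA1 (YAL005C, chromosome I, 139503 to 141431), a cytosolic Hsp70 gene, had 469.8, 517 and 764 FPKM at 60, 70 and 80 min, against 170.3, 196 and 305 FPKM at 20, 30 and 40 min (1.39 ± 0.27, adjusted p = 0.0359). The values climbed through both groups and were highest at 80 min. AHA1, an Hsp90 activator gene, SSC1, the mitochondrial Hsp70 gene, and the disaggregase gene HSP104 were higher (1.29, 1.21 and 1.07). The constitutive relatives SSA2 and HSC82 had differences of 0.61 and 0.54 and were not called (adjusted p = 0.0827 and 0.0524). SSA1 and SSA2 are close in sequence, and how reads shared by both were counted is unknown.

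A heat shock element of 3 alternating units (HSE: TTC, GAA and TTC with 2 free bases between neighbours, both strands) stood before 50.0% of the Hsf1 list, 3.39% of higher loci, 0.915% of lower loci and 0.926% of all tested loci. The windows of SSA1 (chromosome I, minus strand, chrI:141432-141731) and of the co-chaperone gene STI1 (chromosome XV, plus strand, chrXV:380753-381052) are shown as the 2 members with the largest differences that hold one, with the elements in capitals.
SSA1: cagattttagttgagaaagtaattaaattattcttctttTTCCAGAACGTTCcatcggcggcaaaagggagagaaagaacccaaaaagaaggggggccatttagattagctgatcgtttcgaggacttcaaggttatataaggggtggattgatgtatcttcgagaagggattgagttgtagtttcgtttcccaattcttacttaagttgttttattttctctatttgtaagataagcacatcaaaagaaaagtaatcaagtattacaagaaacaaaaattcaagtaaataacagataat
STI1: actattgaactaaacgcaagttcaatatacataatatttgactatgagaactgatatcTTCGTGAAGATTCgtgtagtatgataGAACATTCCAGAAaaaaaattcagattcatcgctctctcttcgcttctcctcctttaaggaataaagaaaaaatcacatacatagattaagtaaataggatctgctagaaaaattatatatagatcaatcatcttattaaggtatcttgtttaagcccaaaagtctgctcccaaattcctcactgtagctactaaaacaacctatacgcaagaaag

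Of 32 proteasome subunit genes, 11 were higher (34.4%, against 7.02% of all loci) and 0 lower, with a median of 0.44. All later libraries lay above all earlier ones for 30 of them (all loci: 25.4%). Leaving out 1 library gave 0 to 5 higher members, and rescaling to the same sum gave 0. PUP1, a catalytic core subunit gene, had 236, 255 and 347 FPKM at 60, 70 and 80 min, against 143, 134 and 161 FPKM at 20, 30 and 40 min (0.91 ± 0.16, adjusted p = 0.0334). The element bound by the proteasome factor Rpn4 (PACE, GGTGGCAAA, both strands) stood before 84.4% of the list, 3.87% of higher loci, 0.305% of lower loci and 1.28% of all tested loci. It is in capitals, on the opposite strand, in the window of PRE6 (chromosome XV, plus strand, chrXV:255037-255336), a core subunit gene that was higher (0.91), 109 bases before the gene.
PRE6: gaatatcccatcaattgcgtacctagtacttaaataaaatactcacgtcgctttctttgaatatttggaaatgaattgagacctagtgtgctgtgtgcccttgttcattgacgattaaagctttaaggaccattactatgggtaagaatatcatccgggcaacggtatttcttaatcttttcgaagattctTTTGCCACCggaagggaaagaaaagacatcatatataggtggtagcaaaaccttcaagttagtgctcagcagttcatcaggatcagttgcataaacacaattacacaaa

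**Figure D5:**
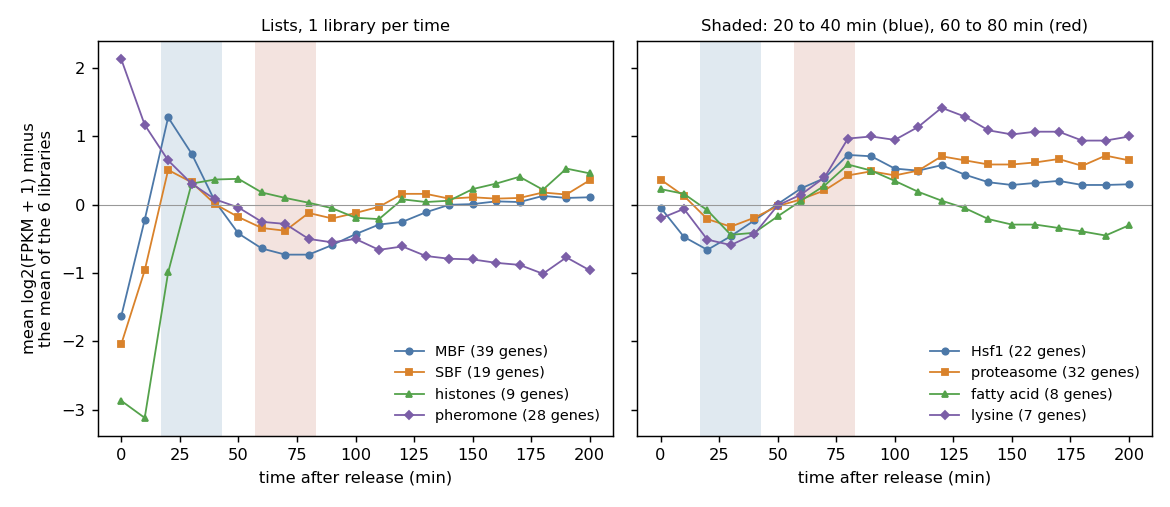
Lines give the mean over each list of log2(FPKM + 1), minus the mean of the same genes over the 6 libraries, against time after release in min, 1 library per time; blue shading marks 20 to 40 min and red shading 60 to 80 min. From 20 min on, the MBF mean is highest at 20 min and lowest at 70 to 80 min; the histone mean is low at 20 min and higher from 30 min on, and the Hsf1 and proteasome means climb between the windows.

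Of 8 fatty acid genes, 5 were higher (62.5%, against 7.02% of all loci) and 0 lower (median 0.83). OLE1 (YGL055W, chromosome VII, 398628 to 400160), the fatty acid desaturase gene, had 839, 1041 and 1321 FPKM at 60, 70 and 80 min, against 290.1, 195 and 279 FPKM at 20, 30 and 40 min (2.06 ± 0.22, adjusted p = 0.0255). Its level at 0 min, in arrested cells, was 1026 FPKM, so the earlier window was a low point between higher levels. ACC1, FAS1 and FAS2, the carboxylase and synthase genes of the pathway, were higher together (0.90, 0.77 and 0.89). The elongase gene ELO1 had a difference of -0.97 and was not called (adjusted p = 0.235). Ergosterol genes had 4 of 24 higher (16.7%) and 0 lower (median 0.18), led by the acetoacetyl-CoA thiolase gene ERG10 (0.97). The mean of the ergosterol list stood 0.29 above its 6-library mean at 80 min, against 0.01 and 0.05 at 60 and 70 min.

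Genes of amino acid and purine synthesis were called in part. LYS20 (YDL182W, chromosome IV, 133437 to 134723), the homocitrate synthase gene at the start of lysine synthesis, was the highest of the named genes, with 112, 158 and 276 FPKM at 60, 70 and 80 min against 25.3, 20.8 and 27.6 FPKM at 20, 30 and 40 min (2.75 ± 0.32, adjusted p = 0.0269). Its near-identical paralogue LYS21 had 96.2, 96.1 and 121 FPKM at 60 to 80 min and 98.1, 97.3 and 89.6 FPKM at 20 to 40 min and was not called. Against 7.02% of all loci, the lysine list had 3 of 7 higher (42.9%) and the arginine list 2 of 8 (25.0%). Other synthesis genes under Gcn4 had 5 of 20 (25.0%) and purine synthesis 4 of 13 (30.8%), with 0 lower in each of the lists. Against the 6-library mean, the Gcn4 list stood at 0.0, 0.06 and 0.52 at 60, 70 and 80 min on the log2 scale. It stood at -0.12, -0.31 and -0.17 at 20, 30 and 40 min. The purine list had 0.04, 0.1 and 0.44, against -0.21, -0.27 and -0.09. The part of the 80 min library in these differences was not tested. ARG1, the argininosuccinate synthetase gene, was at 249, 344 and 544 FPKM at 60, 70 and 80 min against 104, 66.7 and 76.0 FPKM at 20, 30 and 40 min (2.14). ADE1 was also higher (0.91); it is the marker inserted at CLB6, so its reads come from more than 1 possible locus. Sulfur and methionine genes went the other way in median (-0.55), with 2 of 23 lower (8.70%, against 5.67% of all loci). Their mean stood at 0.51 and 0.28 below and 0.15 above its 6-library mean at 60, 70 and 80 min, and at 0.58 below and 0.49 and 0.73 above it at 20, 30 and 40 min on the log2 scale, so the windows overlap.

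Among mitochondrial genes the share called varied by list, and lists were not tested against each other. TCA cycle genes had 6 of 15 higher (40.0%, against 7.02% of all loci) and 0 lower (median 0.45), among them IDH1, an isocitrate dehydrogenase subunit gene, with 141, 151 and 190.4 FPKM at 60 to 80 min against 49, 53.4 and 83.3 FPKM at 20 to 40 min (1.39, adjusted p = 0.0332). Mitochondrial ribosomal proteins had 16 of 66 higher (24.2%) and 1 lower (median 0.31), led by RSM19 (1.44). Its FPKM was 43.2, 33.9 and 67.0 at 60, 70 and 80 min and 15.2, 14.1 and 20.5 at 20, 30 and 40 min, and 80 min was the highest of the 6. Respiratory chain genes had 2 of 30 higher (6.67%, near the share of all loci) and a median of 0.02.

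Cell wall genes were called in both directions. CWP2 (YKL096W-A, chromosome XI, 259253 to 259531), an abundant wall mannoprotein gene, had 10596, 9701 and 16633 FPKM at 60, 70 and 80 min, against 3325, 3429.6 and 6021 FPKM at 20, 30 and 40 min (1.55 ± 0.31, adjusted p = 0.037). TIR1 and TIR3, wall proteins known from cells short of oxygen, were higher (2.46 and 2.48), as was CCW12 (1.56). The glucan-remodelling gene GAS1 was lower, at 1382, 1178 and 1325 FPKM at 60 to 80 min against 2396, 2207 and 2026 FPKM at 20 to 40 min (-0.77), while its relative GAS5 was higher (0.97). Of 18 mannoproteins 4 were higher and 0 lower, of 15 wall enzymes 3 were higher and 4 lower, and of 16 mannosylation genes 1 was higher and 5 lower, with the mannosyltransferase gene PMT4 at -0.80. TIR1, CWP2, CCW12 and CCW14, the 4 called genes of the mannoprotein list, were each highest at 80 min, the library that stood apart in its most abundant loci; the part of that library in these differences was not tested, and all 4 had their 60 and 70 min libraries above all 3 earlier ones.

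Other genes among the highest 12 encode membrane proteins and enzymes. NCE102, which acts at the same membrane domains as SUR7, was higher, with 659, 778 and 1067 FPKM at 60, 70 and 80 min against 177, 175 and 244 FPKM at 20, 30 and 40 min (2.05 ± 0.22, adjusted p = 0.0255). LSP1, a core eisosome gene looked up for this reason after its values were seen, was higher (0.96), and its partner PIL1 was not called (0.70, adjusted p = 0.0975). DIP5, an acidic amino acid permease gene, had the smallest adjusted p of the named genes (2.12 ± 0.18, adjusted p = 0.0221), with 150.0, 164 and 172 FPKM at 60 to 80 min against 39.8, 27.3 and 44.2 FPKM at 20 to 40 min. BIO2, the biotin synthase gene, and SOD1, a superoxide dismutase gene, completed the highest 12 (1.91 and 1.70) with YLR413W (2.56) and YDL241W (2.05), whose functions are not known.

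The lists of ribosome production had shares of calls near or below those of all loci. Of 55 ribosome assembly genes 1 was lower (1.82%) and 0 higher (median -0.15). The PAC letters (GATGAG) stood before 90.9% of them, against 18.7% of all tested loci. Of 138 cytosolic ribosomal protein genes 10 were lower (7.25%, against 5.67% of all loci) and 1 higher, with a median of -0.07. All later libraries lay below all earlier ones for 36 of these 138 (all loci: 21%) and above them for 10 (all loci: 25.4%). RPL22B, 1 of a pair of genes for the same protein, was the lowest of them, at 697, 630.5 and 491 FPKM at 60 to 80 min and 1645, 1345 and 1017 FPKM at 20 to 40 min. Ribosomal protein pairs are close in sequence, which makes the value of a single member uncertain. General stress genes had 5 of 30 higher and 0 lower, HSP104 of the chaperone list among them, and DNA damage genes had 1 of 9 lower.

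Large differences without a call were also present: 63 loci were lower and 81 higher by at least 1 on the log2 scale with an adjusted p of 0.05 or more by limma. Among those with a known length, 16 of 47 and 20 of 50 were shorter than 300 bp. The glyceraldehyde phosphate dehydrogenase gene TDH1 was one of them, at 25.4, 26.4 and 37.2 FPKM at 60, 70 and 80 min and 242, 93.8 and 51.1 FPKM at 20, 30 and 40 min (-1.81, adjusted p = 0.0628), with all later libraries below all earlier ones.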

How the data were processed

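RNA was measured by stranded, poly(A)-selected sequencing (KAPA mRNA kit, per the labels' protocols) in 21 libraries of the mutant course, of which 6 form the comparison. The authors used STAR, Cufflinks and Cuffnorm with genome build R64, per the submitters' processing notes, which give no roles or settings. Versions, strand setting and the treatment of reads that match several loci were not given in the labels or notes used here. The deposited table holds FPKM with 1 added, and 1 was subtracted. That the values are FPKM was inferred from the tools and the values, and no read counts or depth are given, so no counting interval can be had. Another 50 columns, of wild-type cells, were not used here. Of 7126 loci, 6200 (87%) matched the R64 annotation by name, which gave coordinates and promoter windows of 300 bases before the gene.

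Loci with a mean of at least 1 FPKM over the 6 libraries (6100) were compared on log2(FPKM + 1) by limma (version 3.58.1, R version 4.3.3; empirical Bayes, mean-variance trend), with Benjamini-Hochberg adjustment over all of them and calls at an adjusted p under 0.05. Fold changes on this scale understate the change of low genes. SDs are over the 3 libraries of a window. There are no replicate cultures: each window holds 3 neighbouring times with 1 library each. Tables and figures were made with Python 3.11.15, pandas 2.3.3 and matplotlib 3.10.9, and the fit was tested on simulated data. The scaling, pseudocount, filter, variance model, windows, test and each library were varied in turn.

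The windows and gene lists were chosen with earlier results of these data known. Named genes are CLB1 to CLB6, BAR1, all cycle regulators, the 12 lowest and 12 highest called loci (at least 300 bp where a length is known, mean of at least 10 FPKM), and per list up to 4 called members, or 2 given as values where none is called. The histones other than HHF1 and HHT1, RNR2, RNR4, PCL1, SVS1, SRL1, RFA1 to RFA3, PRI1, RFC1 to RFC5, MCM2 to MCM7, SMC1, SCC2, SCC4, ESP1, RTT107, SEN34, RAD27, ABF1, CPS1, LYS21, SSA2, HSC82, STI1, LSP1, PIL1, STE4, STE12, STE18, FAS1, ELO1, PGM2, SAG1 and TDH1 were added after their values were seen.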

Additional observations from a re-analysis of the deposited data

How the results depend on the processing

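The number of calls did not hold under the alternatives. The 346 lower and 428 higher loci kept their direction under every alternative that tested them, 718 of 718 under a mean of at least 10 FPKM. The alternatives reuse the libraries that gave the calls, so a kept direction is no separate support. Rescaling every library to the same sum of FPKM gave 49 lower and 75 higher loci (29 and 45 by at least 1 on the log2 scale). A common slope on time within the windows gave 674 and 768, and taking the spread from all 21 libraries gave 851 and 1009. Setting 70 to 90 min in place of 60 to 80 min gave 926 and 1112 (141 and 249 by at least 1). Testing against a difference of 0.5 with limma's treat gave 0 and 0 (384 loci at an unadjusted p under 0.05). Leaving out 1 library at a time gave 0 to 447 lower and 0 to 425 higher loci, and 0 to 165 and 0 to 173 by at least 1. The cause of these shifts was not tested. Centring libraries on the same median, quantile normalization, a pseudocount of 0.1 or 5, no minimum FPKM, a mean of at least 10 FPKM, no variance trend and adding 50 min to the later window gave 239 to 511 lower and 309 to 612 higher loci. No paired analysis was possible because the labels give no replicate numbers and each time has 1 library. Read depth is unknown, so what it limits cannot be given.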

Other observations

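Other gene lists had few calls at 60 to 80 min against 20 to 40 min, by limma with adjusted p under 0.05. Among all loci 5.67% were lower and 7.02% higher. Genes for septins, bud-neck kinases and Cdc42 polarity had 4 of 19 lower (21.1%) and 0 higher. HSL1, a bud-neck kinase gene, had 79.4, 77.5 and 76.1 FPKM at 60, 70 and 80 min, against 138, 137 and 105 FPKM at 20, 30 and 40 min (log2 difference -0.69, adjusted p = 0.0337). Oxidative defence had 3 of 17 higher (17.6%) and 0 lower, and AHP1, a peroxiredoxin gene, was among the higher (1.25). Amino acid permeases had 3 of 15 higher (20.0%), DIP5 and the lysine permease gene LYP1 (0.62) included. Iron uptake had 2 of 15 (13.3%), the reductase gene FRE1 (0.54) and the copper transporter gene CCC2 (0.69). Glycolysis had 1 of 20 higher (5.0%, under the share of all loci), with a median of 0.32. The gene called, TDH2, a glyceraldehyde phosphate dehydrogenase gene, had 931, 1037 and 1756 FPKM at 60, 70 and 80 min, against 622, 451 and 496 FPKM at 20, 30 and 40 min (1.2). TDH2 shares near-identical sequence with TDH3, so its value is uncertain.

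Hexose transport had 1 of 10 higher (10.0%, against 7.02% of all loci), the low-affinity transporter gene HXT1 (0.85), and 0 lower. The secretory pathway had 1 of 23 higher (4.35%, under the share of all loci), the oxidoreductase gene ERO1 (0.45). Aminoacyl-tRNA synthetases had 1 of 18 higher (5.56%, also under that share), FRS2 (0.68). Meiotic genes had 1 of 8 (12.5%), SPO13 (0.84, at 5.55 FPKM or less in all 6 libraries), and the strain's marker genes 1 of 6 (16.7%), ADE1. Autophagy and vacuolar protease genes had 2 of 22 lower (9.09%, against 5.67% of all loci) and 1 higher (4.55%). Of 79 small nucleolar RNAs, 2 were lower (2.53%; snR39 and snR76, -0.94 and -0.79) and 1 higher (1.27%; snR63, 1.02), both under the shares of all loci. Mature forms of these RNAs mostly lack the poly(A) tail that the library kit selects for. MATa markers had 1 of 7 lower (14.3%). Lists with 0 calls were RNA polymerases I and III (14 tested, 0 at an unadjusted p under 0.05), translation factors (23 tested, 9 at an unadjusted p under 0.05), glucose-repressed carbon use (14 tested, 1), phosphate uptake (14 tested, 4) and MAT alpha markers (3 tested, 1).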
